A study of Mus musculus with 16 samples.

Results

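The genes described here encode voltage-gated and potassium ion channels of the mouse brain and the subunits that assemble with them. They were taken from a table of read counts per gene by symbol: every row starting with Kcn, Cacna, Cacnb, Cacng or Hcn, or with Scn followed by a digit and a or b, except Kcnj8, Kcnj10, Kcnj16 and Kcnk1. This gave 137 of the 24058 gene symbols in the table. By family they comprised 27 Kv alpha subunits (Kcna to Kcnd with the silent Kcnf, Kcng, Kcns and Kcnv subunits), 5 KCNQ, 8 EAG-type (Kcnh), 8 large- and small-conductance or Slo-type (Kcnma, Kcnn, Kcnt, Kcnu), 12 inward rectifier (Kcnj), 13 leak (Kcnk, or K2P) and 4 Hcn genes. A further 17 encoded potassium channel auxiliaries, 10 sodium channel alpha and 4 beta subunits, 10 calcium channel pore subunits (Cacna1), 4 alpha2delta (Cacna2d), 4 beta (Cacnb) and 8 gamma (Cacng) subunits, and 3 were noncoding or antisense rows.

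RNA came from the whole striatum of 9-week-old male wild-type C57BL/6J mice. Astrocytes of all mice carried 1 of the constructs, so no group lacked a construct: bARK, a peptide of the beta-adrenergic receptor kinase that binds and attenuates Gq, or bARK(D110A), the same peptide with a substitution that serves as its control. From each construct 4 libraries were made from RNA pulled down with astrocyte ribosomes through a hemagglutinin tag (IP) and 4 from the cleared lysate (input), giving the groups bARK IP, bARK input, bARK(D110A) IP and bARK(D110A) input. The element that drives the tag and the constructs is not given in the sources used here. Since IP and input libraries were made from 100 ng of RNA each, values are relative amounts within a library, and in such bulk samples fewer cells of a type and less RNA per cell cannot be told apart.

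Voltage-gated channels open when the membrane potential changes and carry sodium, calcium or potassium. Sodium and calcium channels depolarise the cell, and most potassium channels bring it back toward rest. The pore-forming subunit selects the ion, and auxiliary subunits set how many channels reach the surface and how fast they open and close. Kir and K2P channels are open near rest and hold the resting potential, while Hcn channels open on hyperpolarisation. The striatum consists mostly of medium spiny projection neurons, whose resting state is held by inward rectifiers, with smaller numbers of interneurons, including fast-spiking and cholinergic ones. Astrocytes are known above all for Kcnj10, Kcnj16 and Kcnk1, which clear extracellular potassium.

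Libraries held 27.8 M to 51.4 M reads, and channel genes took 0.910% to 0.989% of the reads in bARK IP, against 1.58% to 1.70% in bARK input, and 0.942% to 1.06% in bARK(D110A) IP, against 1.55% to 1.63% in bARK(D110A) input. In a principal component analysis over genes, IP and input separated on the first component (80.7% of the variance). All 14 astrocyte markers rose in IP in both constructs (median log2 fold change 2.58 in bARK and 2.37 in bARK(D110A)), and none of them was at 0. All 14 medium spiny neuron markers fell (medians -1.15 and -1.0) but were still counted in IP, where their summed level in counts per M reads (CPM, scaled by TMM factors) was 5605 to 6439.5 CPM in bARK, against 12966 to 15558 CPM in bARK input, and 5540.3 to 7374 CPM in bARK(D110A) IP, against 11585 to 14073 CPM in bARK(D110A) input. Of 10 interneuron markers, 8 rose in both constructs, with summed levels of 1192 to 1476 CPM in bARK IP, against 270.3 to 307 CPM in bARK input, and 1056 to 1359 CPM in bARK(D110A) IP, against 247 to 351 CPM in bARK(D110A) input. All 10 microglia and all 8 endothelial markers fell in both. Ependymal markers rose as well (5 of 6, medians 2.18 and 1.77). Of 14 pan-neuronal markers, 3 rose and 7 fell in bARK and 4 rose and 5 fell in bARK(D110A), with medians of -0.12 and 0.01. These lists move with the comparison of IP and input, and their part in the channel results was not tested. No single library was the highest, or the lowest, for most of the 118 channel genes. However, bARK(D110A) input 2 was often at one extreme or the other: it was the highest input for 34 and the lowest for 28. The next most often highest input was bARK input 1 (33), and the most often highest IP was bARK(D110A) IP 3 (45). For several channel genes bARK(D110A) input 2 lay above all other inputs, and some of those results are given with and without it.

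The main comparison set IP against input in each construct and asked which channel RNAs were enriched or depleted in the IP. The cell type from which each RNA in the IP came was not tested. Of the 137 channel genes, 118 passed the filter on low counts and were tested across all genes with edgeR. In bARK, 26 rose and 69 fell, which is 80.5% of those tested, against 75.8% of all 15850 genes tested (37.6% higher and 38.1% lower). In bARK(D110A), 24 rose and 63 fell, or 73.7%, which equals the share over all genes (73.7%, of which 36.5% higher and 37.2% lower). The share that changed was near the background in both constructs. The median log2 fold change of the channel genes was -0.44 in bARK and -0.34 in bARK(D110A), beside -0.01 over all genes in each.

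Both constructs gave the same direction for 86 channel genes that passed in each, of which 23 rose and 63 fell, and no channel gene passed in opposite directions. Another 9 passed in bARK only, 1 in bARK(D110A) only and 22 in neither, and the difference between constructs is tested as an interaction further on. The share of all genes that passed in both is not given here. With 75.8% of all genes passing in bARK and 73.7% in bARK(D110A), the count of 86 is not read as particular to channel genes. In bARK the 4 IP libraries lay entirely above the 4 inputs for 25 channel genes and entirely below for 65 (36.1% and 35.8% of all genes), and in bARK(D110A) for 18 and 56 (31.3% and 32.5%). When libraries were scaled by their size alone, the median of all genes moved to -0.15 in bARK and -0.16 in bARK(D110A), and 76.6% of all genes passed in bARK (30.3% higher and 46.3% lower) and 75.3% in bARK(D110A) (28.1% and 47.1%). Among channel genes 21 then rose and 72 fell in bARK, and 18 rose and 69 fell in bARK(D110A).

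**Figure D1:**
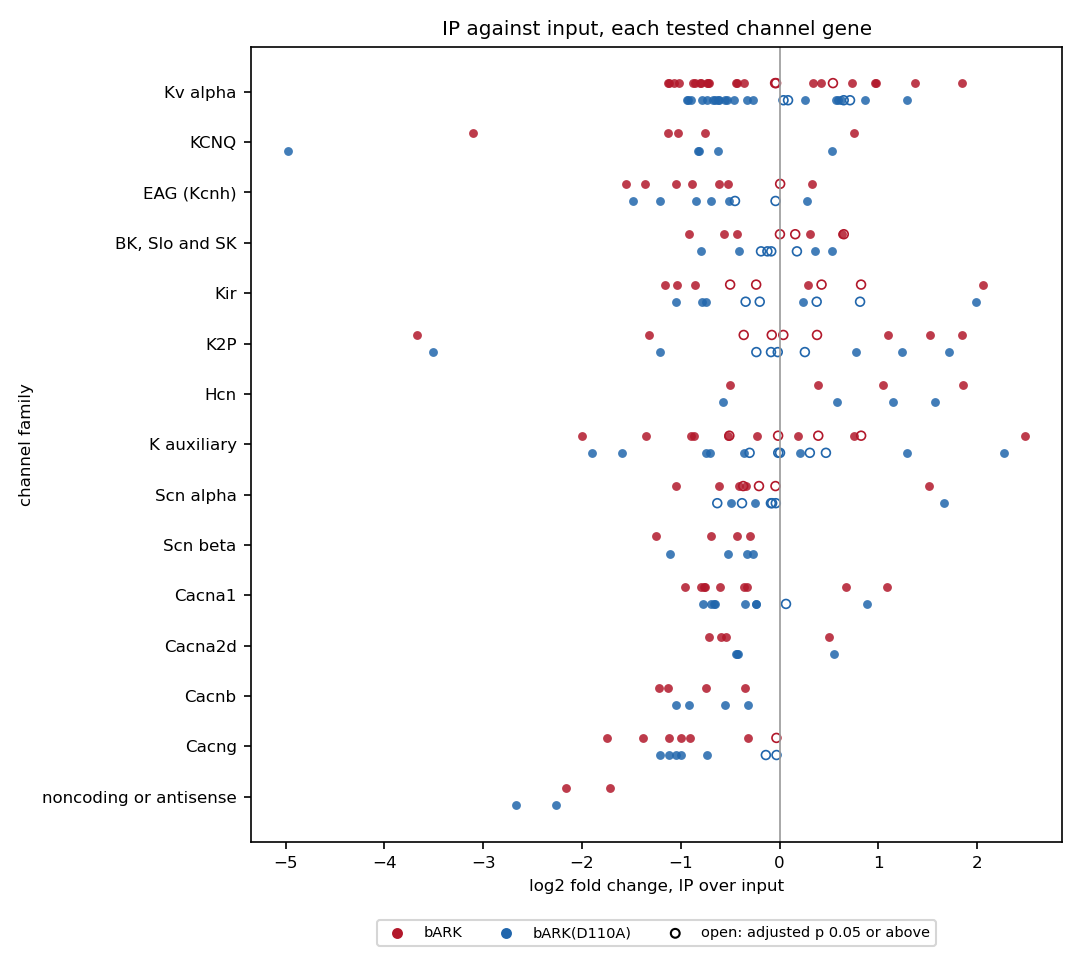
Each point is a channel gene, placed by its log2 fold change of IP over input (x axis) in its family (y axis), red for bARK and blue for bARK(D110A), filled where the adjusted p was under 0.05. Hcn, K2P and Kir genes spread to both sides of 0, while the 4 Cacnb and the 4 Scn beta genes all lie to the left. The leftmost blue point is Kcnq1, which had 0 to 1 reads in each bARK(D110A) IP library.

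The genes with the largest rise in IP encoded an auxiliary subunit, leak channels, an inward rectifier and a pacemaker channel. Kcne1l (chrX:142304753-142306198 of GRCm38), a single-pass accessory subunit of the KCNE family, had 35.8, 46.6, 35.1 and 34.7 CPM in bARK IP, against 6.93, 7.68, 7.11 and 5.5 CPM in bARK input. In the other construct it had 35, 30.1, 31.4 and 36.8 CPM in bARK(D110A) IP, against 6.54, 7.84, 6.8 and 6.46 CPM in bARK(D110A) input. All IP libraries lay far above all inputs, and bARK IP 2 stood above the other 3. The log2 fold change was 2.49 ± 0.12 (SE; adjusted p = 4.16e-12) in bARK and 2.27 ± 0.11 (SE; adjusted p = 1.52e-11) in bARK(D110A). It was the one channel gene whose rise exceeded the median of the interneuron markers (2.14 in bARK and 2.02 in bARK(D110A)), and no channel gene reached the astrocyte median.

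Kcnj14, a Kir-type inward rectifier (chr7:45816467-45824747), had 8.69, 9.65, 6.72 and 6.12 CPM in bARK IP, against 1.86, 1.78, 1.98 and 1.84 CPM in bARK input. In bARK(D110A) the levels were 5.62, 4.91, 7.08 and 5.84 CPM in IP, against 1.4, 1.59, 1.4 and 1.51 CPM in input. The groups did not overlap in either construct, and the log2 fold change was 2.06 ± 0.15 (SE; adjusted p = 1.22e-09) in bARK and 1.99 ± 0.15 (SE; adjusted p = 3.09e-09) in bARK(D110A). Kcnk9, an acid-sensitive leak channel of the TASK type (chr15:72501873-72548614), had 22.7, 25.4, 22.5 and 24.6 CPM in bARK IP, against 5.74, 6.58, 7.03 and 7.07 CPM in bARK input, and 20.2, 23.4, 26.1 and 21.7 CPM in bARK(D110A) IP, against 5.27, 10.5, 6.06 and 5.85 CPM in bARK(D110A) input. All 8 IP libraries lay above all 8 inputs, of which bARK(D110A) input 2 was the highest. The change was 1.85 ± 0.16 (SE; adjusted p = 3.96e-08) in bARK and 1.72 ± 0.16 (SE; adjusted p = 1.01e-07) in bARK(D110A), and 2.00 ± 0.10 (SE; adjusted p = 2.43e-11) in bARK(D110A) without that input. A pair of other leak channels rose: Kcnk10, of the mechanically gated TREK type, by 1.53 ± 0.12 and 1.24 ± 0.12, and Kcnk12, of the THIK type, by 1.09 ± 0.21 and 0.78 ± 0.20, on the log2 scale in bARK and bARK(D110A). Without bARK(D110A) input 2, Kcnk12 gave 1.09 ± 0.16 in bARK(D110A).

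Among voltage-gated pores, Hcn4 (chr9:58822949-58863175), the slowest-gating pacemaker channel, had 14.3, 16, 13.5 and 13.7 CPM in bARK IP, against 3.88, 4.52, 4.11 and 3.44 CPM in bARK input. It had 15, 14.4, 16.2 and 15 CPM in bARK(D110A) IP, against 4.44, 6.85, 4.84 and 4.25 CPM in bARK(D110A) input. The log2 fold change was 1.85 ± 0.13 (SE; adjusted p = 5.04e-10) in bARK and 1.57 ± 0.12 (SE; adjusted p = 3.85e-09) in bARK(D110A), and the groups were apart in both. Without bARK(D110A) input 2, Hcn4 gave 1.75 ± 0.09 in bARK(D110A). Scn7a, an atypical sodium channel known as a sodium-level sensor in glia, reached 2.95 to 5.65 CPM in bARK IP, against 0.672 to 2.53 CPM in bARK input, and 2.74 to 7.45 CPM in bARK(D110A) IP, against 1.32 to 2.29 CPM in bARK(D110A) input, a change of 1.52 ± 0.37 (SE; adjusted p = 0.00156) in bARK and 1.66 ± 0.36 (SE; adjusted p = 0.00071) in bARK(D110A). Kcnc4, a rapidly inactivating high-threshold Kv subunit, rose by 1.37 ± 0.25 in bARK and 1.29 ± 0.25 in bARK(D110A), Kcna6, a Shaker-type delayed rectifier, by 0.98 ± 0.13 and 0.87 ± 0.13, and the low-voltage-activated T-type calcium channel Cacna1g by 1.09 ± 0.27 and 0.88 ± 0.27. Without bARK(D110A) input 2, the bARK(D110A) values were 1.67 ± 0.18 for Kcnc4 and 1.01 ± 0.125 for Kcna6. Kcns3, a silent subunit that modifies Kcnb channels, rose by 0.97 ± 0.25 (SE; adjusted p = 0.00225) in bARK. In bARK(D110A) its value of 0.62 ± 0.25 (SE; adjusted p = 0.0332) missed the threshold in 7 alternatives (adjusted p 0.0652 to 0.103), and it was 1.10 ± 0.14 (SE; adjusted p = 2.78e-06) without bARK(D110A) input 2. Hcn3 rose by 1.05 ± 0.13 and 1.15 ± 0.13. Exons of Hcn3 overlap the opposite-strand gene Pklr by 711 bases and those of Kcna6 overlap Gm26673 by 2355 bases, and with the strand setting of the counting not given their reads cannot be told apart.

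Among genes that averaged at least 1 CPM, the largest fall was that of Kcnk6, a leak channel of the TWIK type (chr7:29221928-29232522), which had 0.738, 0.606, 0.534 and 0.508 CPM in bARK IP, against 6.93, 6.44, 8.74 and 8.3 CPM in bARK input, and 0.652, 0.625, 0.762 and 0.755 CPM in bARK(D110A) IP, against 10.7, 7.79, 6.49 and 7.08 CPM in bARK(D110A) input. These are 21 to 35 reads in every IP library, against 188 to 349 in the inputs. Kcnk6 changed by -3.67 ± 0.18 (SE; adjusted p = 8.01e-12) in bARK and -3.51 ± 0.18 (SE; adjusted p = 1.29e-11) in bARK(D110A). For comparison, the median of the endothelial markers was -3.58 in bARK and -3.82 in bARK(D110A), and that of the microglia markers -5.16 and -5.35.

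Kcnip2, a calcium-binding subunit of the A-type Kcnd channels (chr19:45792346-45816422), had 77.9, 77.1, 75.3 and 68.7 CPM in bARK IP, against 338, 279.9, 281 and 295 CPM in bARK input. It had 75.2, 73.2, 81.6 and 63.4 CPM in bARK(D110A) IP, against 296, 239, 298 and 263 CPM in bARK(D110A) input. Both constructs thus gave levels far apart between IP and input, with log2 fold changes of -2.00 ± 0.09 (SE; adjusted p = 1.99e-12) in bARK and -1.90 ± 0.09 (SE; adjusted p = 4.57e-12) in bARK(D110A). Scn4b, a sodium channel beta subunit known to be abundant in medium spiny neurons (chr9:45138624-45154155), had 795, 828, 808 and 726 CPM in bARK IP, against 2064, 1808, 1775 and 1886 CPM in bARK input. The corresponding levels with the control construct were 893, 778, 974 and 676 CPM in IP, against 1949.8, 1630.0, 1902 and 1693 CPM in input. IP and input did not overlap, and the change was -1.25 ± 0.09 (SE; adjusted p = 2.14e-09) in bARK and -1.11 ± 0.09 (SE; adjusted p = 1.15e-08) in bARK(D110A). Kcnk2, a TREK-type leak channel, had 53.7, 58.2, 55.5 and 52.6 CPM in bARK IP, against 158, 122, 126 and 145 CPM in bARK input, and 52.1, 53.1, 62.1 and 45.3 CPM in bARK(D110A) IP, against 119.7, 116, 136 and 118 CPM in bARK(D110A) input, a change of -1.32 ± 0.09 (SE; adjusted p = 1.18e-09) in bARK and -1.21 ± 0.09 (SE; adjusted p = 4.42e-09) in bARK(D110A). Its exons overlap the opposite-strand gene A430027H14Rik by 604 bases.

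Others among the 12 largest falls were the Elk-type Kcnh channels Kcnh3 (-1.37 in bARK and -1.21 in bARK(D110A)) and Kcnh4 (-1.56 and -1.48), whereas Kcnh8, the other Elk-type gene, did not pass (0.01 and -0.04). Further falls were those of the strong inward rectifier Kcnj4 (-1.16 and -1.04) and of Cacng3 (-1.38 and -1.12), Cacng4 (-1.12 and -1.21) and Cacng7 (-1.0 and -1.0), which serve as auxiliary subunits of AMPA receptors, and the calcium channel beta subunit Cacnb2 (-1.22 and -1.04). All values are log2 fold changes of IP over input, with standard errors of 0.07 to 0.12 except for Kcnh8. That gene had 40 to 91 reads in each library and a standard error of 0.23 in bARK(D110A), so its values are less precise. The noncoding Kcnq1ot1, an imprinted antisense RNA that silences neighbouring genes in cis, fell by 2.16 ± 0.17 in bARK and 2.26 ± 0.17 in bARK(D110A).

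**Figure D2:**
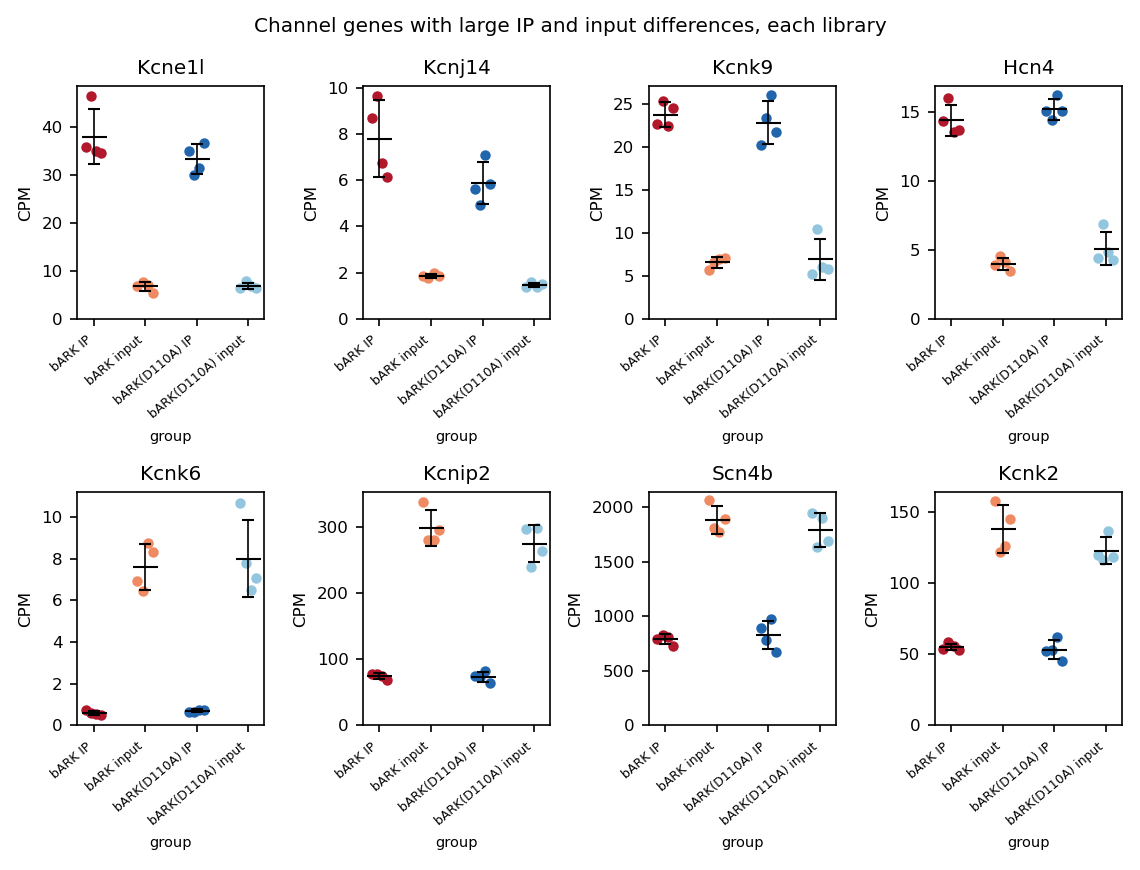
CPM (y axis, linear from 0) of 8 channel genes in each library of the groups bARK IP, bARK input, bARK(D110A) IP and bARK(D110A) input (x axis), with the mean and SD in black (n = 4). In the upper row (Kcne1l, Kcnj14, Kcnk9, Hcn4) all IP libraries lie above all inputs, and in the lower row (Kcnk6, Kcnip2, Scn4b, Kcnk2) all lie below.

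Proximal promoters are shown for 2 genes that rose in IP, Kcne1l and Hcn4, and 2 that fell, Kcnip2 and Scn4b. Each runs from 250 bases before to 50 bases after the start listed for that promoter, 5′ to 3′ on the strand of the gene (RefSeq, GRCm38.p6). For Kcnip2 that start lies inside the gene span of chr19:45792346-45816422, so its window is not upstream of the outer end of the gene. Capitals mark GC boxes, the letters GGGCGG or their reverse complement CCGCCC.
Kcne1l (chrX:142306149-142306448, minus strand): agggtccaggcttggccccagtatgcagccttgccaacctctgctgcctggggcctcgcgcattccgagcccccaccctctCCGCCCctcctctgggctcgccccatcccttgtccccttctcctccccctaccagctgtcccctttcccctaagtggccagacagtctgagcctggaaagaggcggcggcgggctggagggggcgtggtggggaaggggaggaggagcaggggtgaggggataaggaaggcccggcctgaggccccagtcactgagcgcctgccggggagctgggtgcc
Hcn4 (chr9:58822699-58822998, plus strand): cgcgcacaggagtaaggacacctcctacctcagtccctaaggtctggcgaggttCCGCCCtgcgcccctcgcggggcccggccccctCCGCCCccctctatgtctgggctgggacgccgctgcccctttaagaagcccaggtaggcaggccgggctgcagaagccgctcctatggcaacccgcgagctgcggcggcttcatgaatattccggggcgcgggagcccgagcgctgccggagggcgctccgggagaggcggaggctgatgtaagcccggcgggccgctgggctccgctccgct
Kcnip2 (chr19:45816014-45816313, minus strand): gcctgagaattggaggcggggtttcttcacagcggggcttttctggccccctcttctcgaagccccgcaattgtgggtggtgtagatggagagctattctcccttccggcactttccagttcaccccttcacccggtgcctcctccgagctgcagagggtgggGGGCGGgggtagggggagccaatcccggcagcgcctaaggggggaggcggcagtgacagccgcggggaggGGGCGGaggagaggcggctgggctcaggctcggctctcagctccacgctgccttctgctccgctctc
Scn4b (chr9:45138374-45138673, plus strand): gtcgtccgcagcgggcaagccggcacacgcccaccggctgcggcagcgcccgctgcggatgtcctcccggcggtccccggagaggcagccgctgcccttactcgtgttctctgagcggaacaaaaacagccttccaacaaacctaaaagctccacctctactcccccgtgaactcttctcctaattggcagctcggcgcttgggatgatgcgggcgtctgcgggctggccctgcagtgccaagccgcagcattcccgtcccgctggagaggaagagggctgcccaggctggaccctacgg
Kcne1l held 1 GC box, Hcn4 and Kcnip2 held 2 each and Scn4b held none in this window. Over the 99 channel genes with a promoter in that table, 58.6% held at least 1 GC box on either strand, against 38.2% of 27025 genes. The share was 75.0% of the 16 matched genes that rose in both constructs and 67.5% of the 40 that fell in both, so the motif was common on both sides. A gene was counted where any of its listed promoters held the motif. Channel promoters were also richer in GC (median 60.3%, against 52.7% over all genes) and in CpG (median count 10, against 7). The part of this base composition in the share was not tested. A match is a description of these letters and no measure of binding.

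By family, sodium channel alpha subunits were less uniform than beta subunits. Of 8 alpha subunits tested, 1 rose, 4 fell and 3 did not pass in bARK. In bARK(D110A) 1 rose, 2 fell and 5 did not pass, with Scn7a on the rising side in both. Over all genes 38.1% fell in bARK and 37.2% in bARK(D110A). The most abundant, Scn2a1 (Scn2a in current nomenclature), had 628, 601, 632 and 621 CPM in bARK IP, against 793, 778, 768 and 803 CPM in bARK input, and 614, 725, 785 and 629.5 CPM in bARK(D110A) IP, against 703, 692, 764 and 766 CPM in bARK(D110A) input. IP lay below input in bARK, where it changed by -0.34 ± 0.07 (SE; adjusted p = 0.000156), whereas in bARK(D110A) the groups overlapped and the value was -0.09 ± 0.07 (SE; adjusted p = 0.234). Scn8a, the main alpha subunit of nodes and initial segments, fell by 0.41 ± 0.07 in bARK and 0.25 ± 0.07 in bARK(D110A), and Scn3a by 0.61 ± 0.07 and 0.49 ± 0.07. All 4 beta subunits fell in both constructs, with medians of -0.56 and -0.43. The share of Scn4b in the summed beta subunit CPM per kb of exon was 46.7% ± 1.64 in bARK IP, against 59.9% ± 1.27 in bARK input, and 47.2% ± 3.58 in bARK(D110A) IP, against 59.4% ± 2.47 in bARK(D110A) input (SD, n = 4). Per length Scn4b was nonetheless the most abundant of all channel RNAs in every group, at 158 ± 8.9 CPM per kb in bARK IP, 378 ± 25.9 in bARK input, 167 ± 26.2 in bARK(D110A) IP and 360.0 ± 31.3 in bARK(D110A) input.

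Calcium channel pore subunits fell with 1 clear exception. Of 9 Cacna1 genes tested, 2 rose and 7 fell in bARK, and 1 rose and 7 fell in bARK(D110A). Cacna1e, the R-type channel and the most abundant by CPM, had 477 to 531 CPM in bARK IP, against 749.6 to 806 CPM in bARK input, and 476 to 645 CPM in bARK(D110A) IP, against 665 to 764 CPM in bARK(D110A) input, a change of -0.60 ± 0.07 (SE; adjusted p = 1.26e-06) in bARK and -0.35 ± 0.07 (SE; adjusted p = 0.000441) in bARK(D110A). Cacna1s, at under 2 CPM in every library, was the other that passed as higher in bARK (0.68 ± 0.27, SE, adjusted p = 0.0319). The L-type channel Cacna1c fell by 0.95 ± 0.06 and 0.77 ± 0.06. On the other side, Cacna1g had 27.2, 28.3, 24.9 and 30.9 CPM in bARK IP, against 11.5, 10.6, 17.1 and 12.9 CPM in bARK input, and 20.3, 35.9, 26.6 and 23.3 CPM in bARK(D110A) IP, against 9.84, 24.7, 10.7 and 12.2 CPM in bARK(D110A) input. In bARK the groups were apart, but bARK(D110A) input 2 lay above 2 of the bARK(D110A) IP libraries. Its change there was 0.88 ± 0.27 (SE; adjusted p = 0.00915) with all libraries and 1.29 ± 0.20 (SE; adjusted p = 4.15e-05) without that input.

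All 4 beta subunits (Cacnb1 to Cacnb4), which chaperone the pore to the surface, fell in both constructs (medians -0.93 in bARK and -0.73 in bARK(D110A)). Cacnb4, the most abundant, had 259, 227, 238 and 238 CPM in bARK IP, against 545, 513, 493 and 548 CPM in bARK input, and 247, 273, 282 and 230.3 CPM in bARK(D110A) IP, against 499, 480.3, 495 and 479.9 CPM in bARK(D110A) input. IP lay below input throughout, with log2 fold changes of -1.13 ± 0.06 (SE; adjusted p = 2.72e-11) in bARK and -0.92 ± 0.06 (SE; adjusted p = 4.38e-10) in bARK(D110A). Exons of Cacnb4 overlap A430018G15Rik on the opposite strand by 1170 bases. Of the 4 alpha2delta subunits, glycosylated partners of the pore, Cacna2d2 rose (0.50 ± 0.07, SE, adjusted p = 2.48e-06 in bARK and 0.55 ± 0.07, SE, adjusted p = 7.33e-07 in bARK(D110A)). The other 3 fell in both, among them Cacna2d1 (-0.71 ± 0.06 and -0.42 ± 0.06) and the most abundant, Cacna2d3 (-0.59 ± 0.09 and -0.43 ± 0.09). Of 7 gamma subunits tested, 6 fell in bARK and 5 in bARK(D110A), and none rose. Cacng5 did not pass in bARK(D110A) (-0.14 ± 0.09, SE, adjusted p = 0.187). Cacng8, the most abundant of them by CPM and an auxiliary subunit of AMPA receptors, passed in neither construct, with 37.3 to 43.3 CPM in bARK IP, against 40.1 to 44.8 CPM in bARK input, and 37.7 to 45.7 CPM in bARK(D110A) IP, against 39 to 47.2 CPM in bARK(D110A) input (-0.03 ± 0.07, SE, adjusted p = 0.695 and -0.03 ± 0.07, SE, adjusted p = 0.707). It did pass as lower when libraries were scaled by size alone (-0.17 and -0.19). Cacng8 made up 45.9% ± 1.43 of the summed gamma CPM per kb in bARK IP, against 28.6% ± 1.7 in bARK input, and 46.2% ± 1.59 in bARK(D110A) IP, against 30.6% ± 2.46 in bARK(D110A) input.

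In the Hcn family, Hcn3 and Hcn4 rose and Hcn2 fell in both constructs. Hcn2, the most abundant, had 149.9, 135, 126 and 138 CPM in bARK IP, against 205, 199, 186 and 182 CPM in bARK input, and 146, 131, 127 and 142 CPM in bARK(D110A) IP, against 199, 231, 187 and 195 CPM in bARK(D110A) input. No IP library reached an input, and the change was -0.50 ± 0.07 (SE; adjusted p = 5.36e-06) in bARK and -0.57 ± 0.07 (SE; adjusted p = 1.08e-06) in bARK(D110A). Per length, Hcn2 held 81% ± 1.24 of the family's summed CPM per kb in bARK IP, against 91.7% ± 0.715 in bARK input, and 79.7% ± 1.95 in bARK(D110A) IP, against 91.9% ± 0.883 in bARK(D110A) input. Hcn4 held 4.45% ± 0.392, against 0.987% ± 0.0928, in bARK IP and input, and 4.64% ± 0.376, against 1.2% ± 0.17, in bARK(D110A) IP and input.

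**Figure D3:**
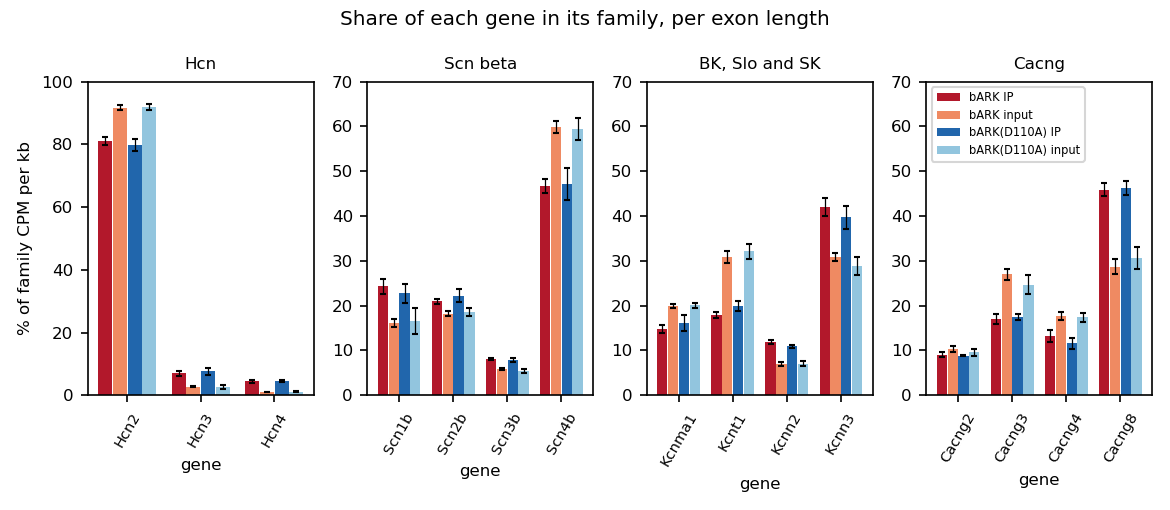
Mean share of each gene in the summed CPM per kb of exon of its family (y axis, percent; bars from 0, SD, n = 4) for 3 Hcn genes, the 4 Scn beta genes and 4 genes each of the BK, Slo and SK and of the Cacng families, in bARK IP, bARK input, bARK(D110A) IP and bARK(D110A) input. Hcn2 and Scn4b have smaller shares in IP than in input, and Cacng8 and Kcnn3 larger ones.

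Voltage-gated potassium channels of the Kv alpha group were the most numerous. Of 24 tested, 7 rose and 14 fell in bARK, and 6 rose and 14 fell in bARK(D110A). Kcna2, a Shaker-type axonal channel and the most abundant by CPM, had 418 to 526 CPM in bARK IP, against 438 to 521 CPM in bARK input, and 444 to 500.4 CPM in bARK(D110A) IP, against 418 to 489 CPM in bARK(D110A) input. The groups overlapped in both, at -0.04 ± 0.07 (SE; adjusted p = 0.663) and 0.04 ± 0.07 (SE; adjusted p = 0.619). Scaled by size alone, it passed as lower in bARK (-0.18) and gave -0.12 in bARK(D110A). Its relative Kcna1 fell by 0.80 ± 0.10 in bARK and 0.65 ± 0.10 in bARK(D110A). Against these, Kcna3 rose by 0.73 ± 0.07 and 0.60 ± 0.06, and the A-type channel Kcnd3 by 0.42 ± 0.09 and 0.57 ± 0.09. Kcnd3 had 92.7, 81.2, 88.4 and 76.2 CPM in bARK IP, against 59.7, 69.8, 66.7 and 57.5 CPM in bARK input, and 86.1, 96, 94.9 and 105 CPM in bARK(D110A) IP, against 57.2, 74.9, 64.1 and 61.2 CPM in bARK(D110A) input, so that every IP library lay above every input.

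Among the KCNQ genes, which carry the M-current that limits repetitive firing, Kcnq3 and Kcnq5 fell in both constructs. Kcnq3 changed by -0.75 ± 0.06 and -0.62 ± 0.06 in bARK and bARK(D110A), and Kcnq5 by -1.13 ± 0.07 and -0.82 ± 0.07. Kcnq1 also passed as lower but had 0 to 3 reads in the bARK IP libraries, against 9 to 14 in bARK input, and 0 to 1 in bARK(D110A) IP, against 2 to 16 in bARK(D110A) input. Of the 8 EAG-type genes, 1 rose and 6 fell in bARK, and 1 rose and 5 fell in bARK(D110A). Kcnh2, the cardiac delayed rectifier known as HERG, was the one that rose (0.33 ± 0.09, SE, adjusted p = 0.00245 and 0.28 ± 0.09, SE, adjusted p = 0.00758), although it missed the threshold with library size as the only scaling (0.18 and 0.12).

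Calcium- and sodium-activated channels moved in both directions. The small-conductance channels Kcnn2 and Kcnn3, which carry afterhyperpolarisation currents, rose. Kcnn3 had 94.8, 96.1, 95.4 and 85.1 CPM in bARK IP, against 81.4, 68.8, 70.6 and 80.1 CPM in bARK input, and 87.1, 78.6, 84.9 and 85.4 CPM in bARK(D110A) IP, against 65.4, 59.8, 65 and 71.2 CPM in bARK(D110A) input, with IP above input in both constructs (0.30 ± 0.06, SE, adjusted p = 0.00038 in bARK and 0.36 ± 0.06, SE, adjusted p = 7.42e-05 in bARK(D110A)). Kcnn2 changed by 0.63 ± 0.06 in bARK and 0.53 ± 0.06 in bARK(D110A). The large-conductance Kcnma1 and the sodium-activated Kcnt1 fell instead. Kcnma1, the most abundant of the family by CPM, had 139 to 156 CPM in bARK IP, against 206 to 228 CPM in bARK input, and 133 to 175 CPM in bARK(D110A) IP, against 194 to 207 CPM in bARK(D110A) input (-0.56 ± 0.07 and -0.41 ± 0.07), and Kcnt1 changed by -0.92 ± 0.06 and -0.79 ± 0.06. Per length, Kcnn3 made up 41.9% ± 2.0 of the family in bARK IP, against 30.8% ± 0.973 in bARK input, and 39.7% ± 2.57 in bARK(D110A) IP, against 28.8% ± 2.01 in bARK(D110A) input.

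Inward rectifiers showed 2 rises (Kcnj12 and Kcnj14), 3 falls and 4 genes that did not pass among 9 tested, in each construct. Those 4 passed with the replicate block in both constructs, Kcnj3 and Kcnj5 as higher and Kcnj6 and Kcnj9 as lower. Kcnj4, the most abundant, had 112, 116, 118 and 115 CPM in bARK IP, against 274, 247, 258 and 250.4 CPM in bARK input, and 131, 119, 133 and 102 CPM in bARK(D110A) IP, against 264, 239, 269 and 228 CPM in bARK(D110A) input. The IP libraries lay below all inputs (-1.16 ± 0.07, SE, adjusted p = 1.68e-10 in bARK and -1.04 ± 0.07, SE, adjusted p = 7.46e-10 in bARK(D110A)). Its relative Kcnj2 fell by 1.03 ± 0.14 and 0.78 ± 0.14. Kcnj12 rose by 0.29 ± 0.07 and 0.24 ± 0.07, but missed the threshold with library size as the only scaling (0.15 and 0.08). The leak channels also moved both ways. Of 9 tested, 3 rose (Kcnk9, Kcnk10 and Kcnk12), 2 fell (Kcnk2 and Kcnk6) and 4 did not pass, in each construct. Per length, Kcnk2 held 49.98% ± 3.98 of the family in bARK IP, against 73.9% ± 2.82 in bARK input, and 48.2% ± 5.13 in bARK(D110A) IP, against 70.2% ± 4.66 in bARK(D110A) input. Kcnk9 held 7.37% ± 0.571, against 1.22% ± 0.18, in bARK IP and input, and 7.09% ± 0.924, against 1.35% ± 0.433, in bARK(D110A) IP and input.

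Of 13 potassium channel auxiliaries tested, 3 rose and 6 fell in bARK, and 3 rose and 5 fell in bARK(D110A). The most abundant, Kcnab1, a cytoplasmic beta subunit of Kcna channels, had 361, 370.0, 354 and 330.2 CPM in bARK IP, against 741, 623, 591 and 629 CPM in bARK input, and 383, 352, 424 and 321 CPM in bARK(D110A) IP, against 647, 544, 638 and 588 CPM in bARK(D110A) input. IP lay below input in both (-0.87 ± 0.08, SE, adjusted p = 5.64e-08 in bARK and -0.71 ± 0.08, SE, adjusted p = 7.92e-07 in bARK(D110A)), and per length Kcnab1 ranked second among all channel RNAs in each group. Kcnip3, a relative of Kcnip2, had 113 to 132 CPM in bARK IP, against 102 to 118 CPM in bARK input, and 112 to 132 CPM in bARK(D110A) IP, against 95.8 to 109 CPM in bARK(D110A) input. It passed as higher (0.19 ± 0.06, SE, adjusted p = 0.012 and 0.21 ± 0.06, SE, adjusted p = 0.00654), but not with library size as the only scaling (0.05 in each). Per length, Kcnip2 held 10.7% ± 0.423 of the auxiliaries in bARK IP, against 25.8% ± 0.718 in bARK input, while Kcne1l held 8.8% ± 1.27, against 0.956% ± 0.149.

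Proteins that bind these channels also moved in both directions. Of 26 channel partners tested, 7 rose and 14 fell in bARK and 7 rose and 11 fell in bARK(D110A), with median log2 fold changes of -0.28 and -0.10. Cachd1, an alpha2delta-like calcium channel partner, rose by 1.88 ± 0.07 and 1.65 ± 0.07, Gem, a small GTPase that inhibits calcium channels, by 1.88 ± 0.14 and 1.80 ± 0.14, and Ank2, an ankyrin that anchors membrane proteins, by 1.12 ± 0.05 and 1.08 ± 0.05. On the falling side, Fgf14, an intracellular modulator of sodium channels, changed by -1.26 ± 0.07 and -1.02 ± 0.07, and Unc79, a subunit of the sodium leak channel complex, by -1.08 ± 0.06 and -0.95 ± 0.06. These 5 were chosen after their values were seen. Of the 4 potassium channel genes left out by the rule, 3 rose in both constructs. Kcnj10 had 603, 705, 546 and 572 CPM in bARK IP, against 136, 143, 132 and 136 CPM in bARK input, and changed by 2.15 ± 0.10 in bARK and 1.88 ± 0.10 in bARK(D110A). Kcnj16 changed by 2.15 ± 0.12 and 1.97 ± 0.12, Kcnk1 by 1.14 ± 0.06 and 1.06 ± 0.06, and Kcnj8, known from mural cells, by -1.99 ± 0.20 and -2.27 ± 0.21.

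Several values of bARK(D110A) changed when input 2 of that construct was left out. IP 2 comes from the same homogenate as input 2 and was also high for Kcnc2 and Cacna1g, so both libraries were left out together as an alternative added after seeing the data. Kcng4, a silent Kv subunit, had 13.3, 10.8, 8.04 and 11.5 CPM in bARK IP, against 3.18, 2.88, 2.88 and 3.2 CPM in bARK input, and 5.95, 8.66, 9.74 and 8.17 CPM in bARK(D110A) IP, against 2.38, 12, 2.64 and 2.73 CPM in bARK(D110A) input. The bARK(D110A) input 2 was above all other 7 inputs, which ranged from 2.38 to 3.20 CPM. With it, Kcng4 rose in bARK (1.85 ± 0.44, SE, adjusted p = 0.00173) and did not pass in bARK(D110A) (0.71 ± 0.42, SE, adjusted p = 0.145), and without it the value in bARK(D110A) was 1.65 ± 0.18 (SE; adjusted p = 4.09e-07). It was 1.62 ± 0.19 (SE; adjusted p = 1.49e-06) without IP 2 and input 2, and 0.96 ± 0.37 (SE; adjusted p = 0.0415) with replicates as a block. Set against its own input, Kcng4 was higher in IP in 3 of 4 bARK(D110A) pairs. Kcnc2, a Kv subunit of fast-spiking interneurons, had 53.3, 100.2, 68.9 and 97.4 CPM in bARK(D110A) IP, against 24.5, 89.9, 44 and 45.1 CPM in bARK(D110A) input, and passed in that construct when input 2 was left out (1.08 ± 0.32, SE, adjusted p = 0.00955, against 0.65 ± 0.36, SE, adjusted p = 0.119 with it). It was 0.95 ± 0.34 (SE; adjusted p = 0.0258) without both libraries and 0.74 ± 0.29 (SE; adjusted p = 0.0532) with the block, and IP was above its own input in 4 of 4 bARK(D110A) pairs. In bARK the pairs were less uniform, with Kcnc2 higher in IP in 3 of 4 (log2 ratios 1.42, -0.35, 0.27 and 0.70). Cacna1g was higher in IP in 4 of 4 bARK(D110A) pairs, at 1.10 ± 0.16 (SE; adjusted p = 1.95e-05) in that construct without both libraries. Pvalb, the calcium-binding protein that marks fast-spiking interneurons, had 16.2, 19.4, 18.5 and 21.9 CPM in bARK(D110A) IP, against 17, 63, 23.7 and 20.1 CPM in bARK(D110A) input, so it was also highest in input 2, and the summed level of the 10 interneuron markers was 351 CPM there, against 247 to 307 CPM in the other 7 inputs. Their part in these values was not tested. Without input 2, bARK(D110A) had 30 channel genes higher and 59 lower (of all genes 36.2% and 36.7%, or 72.9% in all), as 6 passed that had not (Kcnc2, Kcng4, Kcnip1, Kcnj3, Kcnmb2 and Kcnt2, all higher) and 4 no longer did (all lower, Cacna2d4, Kcnf1 and Kcng2 among them). Without both libraries 29 were higher and 61 lower (of all genes 35.7% and 35.5%, or 71.2% in all), with Kcnc2, Kcng4, Kcnip1, Kcnj3 and Kcnmb2 again among those higher and Kcnt2 not passing. The genes of this paragraph were chosen after their values were seen.

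**Figure D4:**
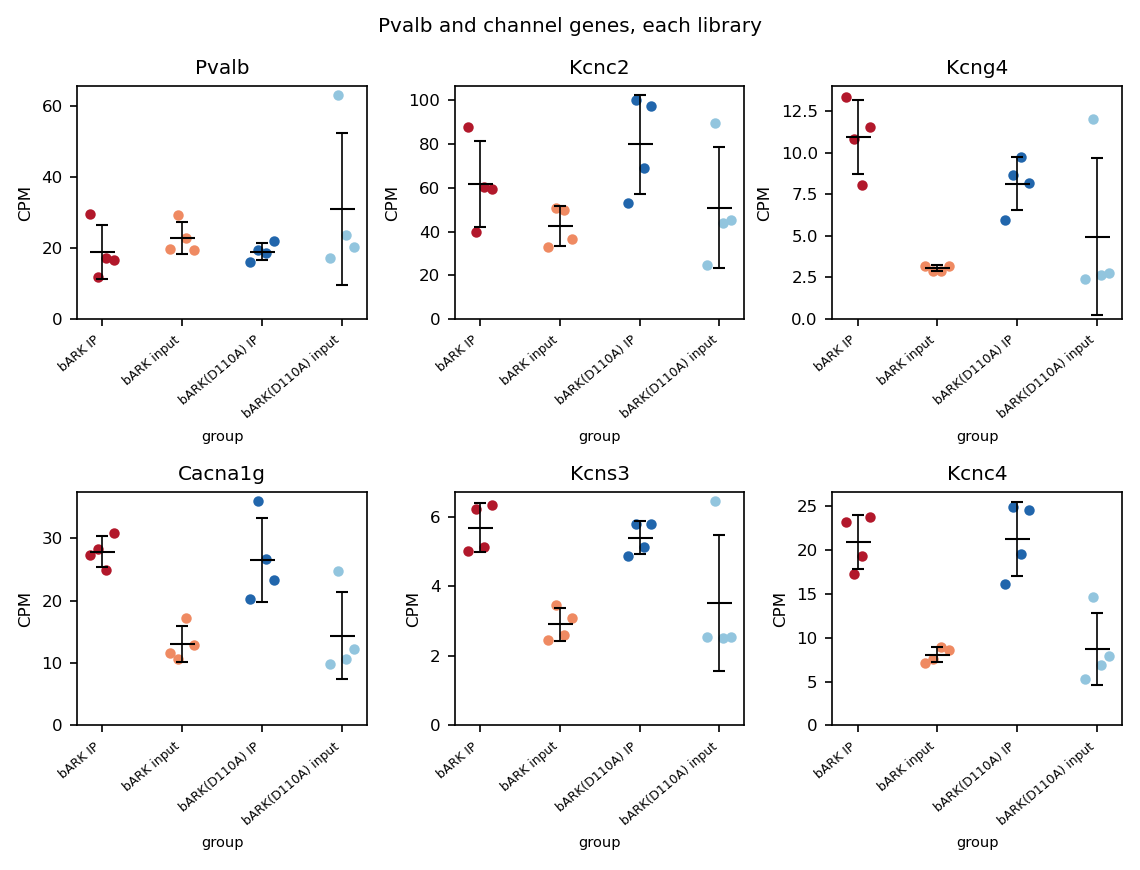
CPM (y axis, linear from 0) of Pvalb and 5 Kv or calcium channel genes in each library of bARK IP, bARK input, bARK(D110A) IP and bARK(D110A) input (x axis), mean and SD in black (n = 4). In each panel 1 bARK(D110A) input library, number 2, lies above the other 3 (for Kcng4 12 CPM, against 2.38 to 2.73 CPM).

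Over the 84 channel genes that averaged at least 10 CPM, the median coefficient of variation was 6.84% in bARK IP, 6.27% in bARK input, 11% in bARK(D110A) IP and 8.13% in bARK(D110A) input. The widest were Kcnc2 in bARK IP (31.9%), Cacna1g in bARK input (22.1%), Kcnk13 in bARK(D110A) IP (36.6%) and Kcnc2 in bARK(D110A) input (54.4%). Kcnk13, a THIK-type leak channel, had 22.8, 17.4, 9.39 and 13.2 CPM in the bARK(D110A) IP libraries, where 10 oligodendrocyte markers summed to 11387, 8423, 4272 and 6965 CPM in the same order. It was chosen after its values were seen, and the part of those markers in it was not tested.

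The construct comparison asked whether bARK changed channel RNA relative to bARK(D110A). In the 8 IP libraries, 116 channel genes were tested with edgeR and 0 passed, as did 0% of all 15006 genes. At an unadjusted p under 0.05, 7 were higher and 9 lower, beside 8.58% of all genes (5.26% higher and 3.32% lower). The median log2 fold change of the channel genes was -0.07 (0.00 over all genes), 32 of 116 values were positive, and no value reached 1 in size. As 1 library was left out at a time, that median ranged from -0.10 (without bARK(D110A) IP 4) to -0.03 (without bARK(D110A) IP 2). The groups did not overlap for 2 genes that were higher and 4 that were lower (2.95% and 1.27% of all genes).

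The smallest p in IP was that of Kcnq5, which had 116, 114, 128 and 112 CPM in bARK IP, against 137, 141, 159 and 131 CPM in bARK(D110A) IP. All 4 bARK libraries lay below all 4 bARK(D110A) libraries. The log2 fold change was -0.28 ± 0.06 (SE; unadjusted p = 0.000918, adjusted p = 0.468). DESeq2 gave -0.29 with an adjusted p of 0.0176, the one channel gene it called among 48 genes in all (0.362% of 13260 genes, 0.083% lower). In input Kcnq5 overlapped, with 260.2, 275, 244 and 252 CPM in bARK, against 258, 213, 274 and 256 CPM in bARK(D110A). Kcns2, a silent Kv subunit, gave -0.22 ± 0.06 (SE; unadjusted p = 0.00354, adjusted p = 0.468), Kcnip4, a further Kcnd subunit, -0.21 ± 0.06 (SE; unadjusted p = 0.00497, adjusted p = 0.468), and Kcnn2 0.18 ± 0.05 (SE; unadjusted p = 0.00439, adjusted p = 0.468). Kcnn2 had 34.2, 33.6, 32 and 34.9 CPM in bARK IP, against 27.8, 29, 31 and 30.3 CPM in bARK(D110A) IP, with no overlap.

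In the 8 input libraries, 118 channel genes were tested with edgeR and 0 passed, as did 0% of all 15361 genes. At an unadjusted p under 0.05, 13 were higher and 3 lower, beside 5.89% of all genes (2.77% higher and 3.12% lower). Of the channel genes 68 of 118 values were positive and the median was 0.03 (-0.01 over all genes). DESeq2 called 2 genes in all (0.013%) and no channel gene. The groups were apart for 5 genes that were higher and 1 that was lower (1.93% and 1.32% of all genes). The smallest p belonged to Kcnn3, with 81.4, 68.8, 70.6 and 80.1 CPM in bARK input, against 65.4, 59.8, 65 and 71.2 CPM in bARK(D110A) input, with overlap, and 0.20 ± 0.07 (SE; unadjusted p = 0.0159, adjusted p = 0.774). Kcnq3 gave 0.14 ± 0.05 (SE; unadjusted p = 0.0161, adjusted p = 0.774), Cacng3 0.21 ± 0.08 (SE; unadjusted p = 0.0192, adjusted p = 0.774), Cacnb1 0.18 ± 0.07 (SE; unadjusted p = 0.0221, adjusted p = 0.774) and Cacna1s, a calcium channel pore known from skeletal muscle, -0.59 ± 0.24 (SE; unadjusted p = 0.0284, adjusted p = 0.774).

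Whether the constructs enriched channel RNA to different degrees was tested with an interaction term over all 16 libraries. With edgeR 0 of 118 channel genes passed, as did 0% of all 15850 genes. Of the channel genes, 1 was higher and 9 lower at an unadjusted p under 0.05, beside 6% of all genes (4.08% higher and 1.92% lower), and 37 of 118 values were positive (median -0.11, beside 0.02 over all genes). Leaving out 1 library at a time moved the channel median between -0.14 (without bARK input 2) and -0.06 (without bARK(D110A) IP 3). DESeq2 called none. Cacna2d1 had the smallest p. Its levels were 154, 145, 157 and 158 CPM in bARK IP, against 246, 256, 243 and 262 CPM in bARK input, and 162, 192, 185 and 162 CPM in bARK(D110A) IP, against 236, 219.9, 238 and 242 CPM in bARK(D110A) input, and the enrichment differed by -0.30 ± 0.08 (SE; unadjusted p = 0.00164, adjusted p = 0.825). Kcnq5 followed with -0.32 ± 0.10 (SE; unadjusted p = 0.00739, adjusted p = 0.825), then Scn2a1 with -0.25 ± 0.09 (SE; unadjusted p = 0.0142, adjusted p = 0.825), Scn2b with -0.17 ± 0.07 (SE; unadjusted p = 0.027, adjusted p = 0.825) and Cacnb4 with -0.21 ± 0.09 (SE; unadjusted p = 0.0272, adjusted p = 0.825). The median standard error was 0.10 in IP, 0.08 in input and 0.14 for the interaction. The 3 tests share libraries. Medium spiny neuron markers had negative interaction values in 14 of 14 (median -0.17), and astrocyte markers had positive ones in 14 of 14 (median 0.23), with 0 passing in either list. Their part in the channel values was not tested.

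**Figure D5:**
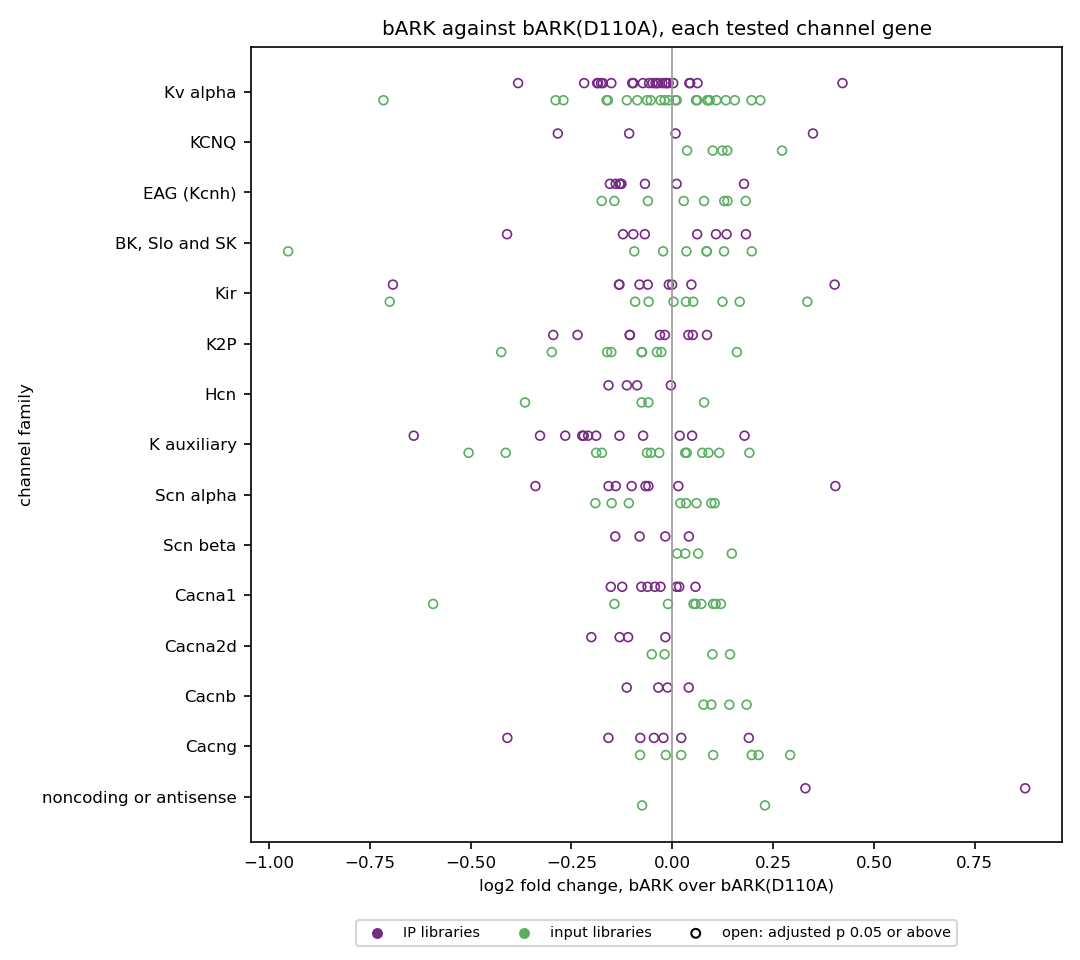
Each point is a channel gene, placed by its log2 fold change of bARK over bARK(D110A) (x axis) in its family (y axis), purple for IP and green for input libraries. All points are open, since no adjusted p was under 0.05. In IP 32 of 116 values lie to the right of 0, and in input 68 of 118.

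The 19 channel genes not tested had few reads, with at most 25 reads in any library (Scn10a), and Kcnk16 and Kcnk18 had 0 reads in every library. Exons of 30 channel genes overlap those of another gene by at least 50 bases on the opposite strand. Among them are Kcnd3 and its antisense row Kcnd3os (165 bases), Kcnq1 and Kcnq1ot1 (121 bases), Kcnma1 and 4930519K11Rik (1016 bases), Kcnn2 and A330093E20Rik (284 bases), and Kcnq5 and Gm26580 (237 bases), and their reads cannot be told apart where the counting ignored strand.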

How the data were processed

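Striatal RNA of mice expressing bARK or bARK(D110A) in astrocytes was measured by RNA-seq in 4 ribosome IP and 4 input libraries per construct. Values are read counts per gene, deposited by the authors without normalization. The submitters' processing notes name bcl2fastq 2.17, STAR, HTSeq and limma with build mm10, and neither the annotation counted against nor its strand setting, nor versions of STAR and HTSeq, is given in the sources used here. Genes passing filterByExpr (minimum count 10) were scaled by TMM and tested in R 4.3.3 with edgeR 4.0.16 (quasi-likelihood, 2-sided, Benjamini-Hochberg threshold 0.05). IP against input and the interaction were fitted over all 16 libraries, and each construct comparison over its 8. Every adjusted p in the text is edgeR's over all genes tested unless another tool is named. Fits were tested on simulated counts. DESeq2 1.42.0, limma 3.58.1 (voom), library size alone, other filters, other samples in the fit, a replicate block and leaving out each library were alternatives. CPM was computed from total counts with TMM scaling, and CPM per kb from GENCODE M21 exon unions. No library duplicated another.

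Named genes were the 12 largest changes in each direction that passed in both constructs with a mean of at least 1 CPM, the most abundant gene of each family, the 5 smallest p of each construct comparison, and genes set side by side within families. Some genes that the rule selects are not reported here. The channel genes and all lists were chosen with earlier results of these data known. Replicate numbers link the IP and input of a construct: their deviations from the group means correlated at 0.17 to 0.32 in bARK and 0.24 to 0.56 in bARK(D110A), each best with its own number, and the design text has both fractions purified from the same homogenate. Numbers did not pair mice across constructs. Since no label states outright that replicates are separate mice, the p-values only set differences against the spread of these libraries, part of which may be technical. Depth of 27.8 M to 51.4 M reads means that genes under about 1 CPM rest on few reads and are the least precise.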

Additional observations from a re-analysis of the deposited data

Results flagged for a closer look

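In 241 groups of 4 libraries, 19 values stood far from the other 3 of their group, where chance gives about 1 in 20. In bARK(D110A) input 2, Kcng4 was at 12 CPM (others 2.38 to 2.73), Kcns3 at 6.45 (2.51 to 2.54), Cacna1g at 24.7 (9.84 to 12.2), Kcnk9 at 10.5 (5.27 to 6.06) and Cacng7 at 25.2 (19.5 to 20.4). In bARK input 1, Kcnk10 was at 2.72 CPM (4.06 to 4.22), Kcnk12 at 1.65 (2.45 to 2.47), Cacnb2 at 156 (109.7 to 117) and Kcnip4 at 38.4 (42.9 to 43.7). In bARK IP 4, Kcnh3 was at 62.2 CPM (52.1 to 53.8), Kcnn3 at 85.1 (94.8 to 96.1) and Kcnj2 at 46.7 (69.1 to 72.0). In bARK(D110A) IP 1, Kcnk10 was at 13.2 CPM (9.87 to 10.4) and Kcnip4 at 37.4 (42.1 to 42.3). The remaining values were Kcne1l in bARK IP 2 at 46.6 CPM (34.7 to 35.8), Kcna3 in bARK IP 1 at 18.2 (19.6 to 19.7), Kcna3 in bARK(D110A) input 4 at 12.1 (13.1 to 13.2), Kcnma1 in bARK(D110A) input 1 at 194 (206.9 to 207) and Kcnn2 in bARK input 4 at 23.4 (20.98 to 21.3). With edgeR no channel gene's IP enrichment differed between constructs after adjustment.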

How the results depend on the processing

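Under DESeq2, limma voom, library size alone, either other count filter and the other choice of samples in the fit, the number of channel genes called stayed at 21 to 27 higher and 65 to 72 lower in bARK and at 18 to 26 higher and 59 to 69 lower in bARK(D110A), and no called gene changed sign under any of them. Over all genes these settings called 10850 to 12478 in bARK (4806 to 6010 higher) and 10553 to 12147 in bARK(D110A) (4459 to 5974 higher). The number of genes tested differed with the filter. With the replicate block that pairs IP and input, 30 rose and 72 fell in bARK and 29 rose and 67 fell in bARK(D110A), while over all genes 12659 passed in bARK (6308 higher) and 12400 in bARK(D110A) (6152 higher), and no construct comparison called a gene. Leaving out 1 library at a time gave 24 to 26 higher and 67 to 70 lower in bARK, and 22 to 30 higher and 59 to 64 lower in bARK(D110A), with 30 and 59 when bARK(D110A) input 2 was left out and 29 and 61 without IP 2 and input 2 of that construct. Over all genes, leaving out 1 library called 11646 to 12166 in bARK (5673 to 6039 higher) and 11313 to 11741 in bARK(D110A) (5634 to 5950 higher). The construct comparisons gave 0 channel genes in every setting except DESeq2, which called 1 lower in IP. For genes near 0 the sign turned: Cacng8 ranged from -0.07 to 0.00 in bARK and from -0.08 to 0.05 in bARK(D110A) as 1 library was left out, Kcna2 from -0.12 to 0.01 in bARK, and Kcna2 in bARK(D110A) was -0.12 with library size alone. None of these values passed the threshold, and the cause was not tested. Depth limits the genes of a few reads, such as Kcnq1.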
